A study of Mus musculus with 6 samples.

Results

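Control cells of a mouse acute myeloid leukaemia driven by MLL-AF9 were profiled on 3 arrays, described here on their own, with every gene ranked by its mean log2 value over these arrays. MLL-AF9 is a fusion oncoprotein, and per the labels the cells came from the C57BL/6 background and were enriched for leukaemia stem cells, the cells that propagate the disease. The control arrays are 3 of 6 in the series, and the other 3 came from the same kind of cells with Kdm1a knocked down. Cells of both groups had been cryopreserved, thawed and spun with viral supernatant overnight in medium with X63 supernatant. The sources used here do not give the control construct or the ages and sexes of the animals. The design text speaks of 2 animals behind 3 samples. Which sample came from which animal is not stated, so some control samples share an animal, and the spread between arrays may therefore be narrower than that between animals.

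The ranking was read in 2 tables of the same arrays. The gene-level table holds 23770 rows with Ensembl identifiers and no symbols, so it served for the spread between arrays. The probe-set table holds 267824 short exon-scale features, and 242247 of them carry exactly 1 gene symbol in the platform annotation. A gene's value on an array was the median of its probe sets, and the 16871 genes with at least 3 probe sets formed the named ranking. A percentile here is the share of those genes at or below a gene's value. Probes differ in how brightly they bind, so a rank describes brightness on these arrays and does not test 1 gene against another.

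Myeloid cells mature through stages that are marked by different products. Haematopoietic stem and progenitor cells carry receptors such as KIT and CD34. Promyelocytes fill primary granules with myeloperoxidase and serine proteases, and later stages make secondary granule proteins such as lactoferrin. Monocytes make scavenger receptors and lysosomal proteins. MLL fusions hold cells at an early stage and keep HOXA genes and Meis1 active.

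Control 1 stood apart from the other control arrays. Pearson's r across the 23770 gene-level rows was 0.9715 between controls 1 and 2, 0.9771 between controls 1 and 3, and 0.9837 between controls 2 and 3. In the named ranking, control 1 lay more than 1 log2 unit (2-fold) above both other arrays in 142 genes, or 0.842% of 16871, and below both in 317 genes, or 1.88%. The same counts were 55 (0.326%) and 63 (0.373%) for control 2, and 29 (0.172%) and 24 (0.142%) for control 3. In the gene-level table the order was the same with a smaller gap to control 2. Control 1 was apart upward in 188 rows (0.791%) and downward in 289 (1.22%), control 2 in 138 (0.581%) and 136 (0.572%), and control 3 in 55 (0.231%) and 62 (0.261%). The results below therefore give every array, and the medians of the myeloid, MLL-AF9, stem and T cell lists are also given without control 1. This observation was made after the values were seen, and no test was made on it. Kdm1a, the targeted histone demethylase, measured 8.61, 8.94 and 8.74 on the control arrays and 6.30, 6.15 and 6.15 on the knockdown arrays, so it was lower on all 3 arrays labelled as knockdown. On the control arrays it lay at percentile 90.4.

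The top of the ranking was made of translation, mitochondrial and protein-handling genes that all cells use, together with a few blood cell genes. Eef1a1, a translation elongation factor, ranked first at 12.81 ± 0.0676 (SD, n = 3), with 12.86, 12.84 and 12.73 on controls 1, 2 and 3. B2m, the light chain of MHC class I, followed at 12.51, 12.62 and 12.64. Slpi, a secreted inhibitor of neutrophil elastase and cathepsin G, was the third at 12.61, 12.45 and 12.41. Of the other genes among the highest 25, Rpl4 and Rplp1 are ribosomal, and Eef1b2, Eif1ax and Pabpc1 act in translation. Atp5b, Cox4i1, Cox6b1, ND1, Atpif1, Tomm7 and Micos10 belong to mitochondria. Hsp90ab1 and Hsp90b1 are chaperones and Psmb4 is a proteasome subunit. Fth1 stores iron, Gpx1 removes peroxides, Sub1, Nap1l1 and Serbp1 bind nucleic acids or histones, and Lgals1 is a galectin. Arhgdib, a member of the pan-haematopoietic list, was 20th at 11.85 ± 0.0683 (SD, n = 3). The 25th gene, Hsp90b1, had a mean of 11.72 and the 26th, Dbi, 11.70, so the edge of this group marks no gap.

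Within the highest 100 named genes the groups were uneven. They held 12 of 68 ranked respiratory chain and ATP synthase genes, which is 17.6% of that class, and 8 of 55 translation factors, or 14.5%. They also held 5 of 35 proteasome subunits, or 14.3%, whereas 100 of 16871 is 0.593%. These classes were defined by symbol after the top of the ranking was seen. Ribosomal proteins with a symbol of Rpl or Rps and a number had 3 of 13 ranked members among the 100, or 23.1%. This symbol rule leaves out Rplp1, which had rank 8. Of 30 listed ribosomal protein genes 12 were ranked, since the others had under 3 probe sets, so this minimum also shapes the top. Of the blood lists, 4 of 16 pan-haematopoietic and 2 of 10 primary granule genes stood among the 100, and 0 of 13 secondary granule genes did. A count of 0 is near the 0.593% of all ranked genes, and S100a9 and S100a8 of the secondary granule list had ranks 131 and 159. Among the 100, values were tight: the median SD over the 3 arrays was 0.0977, against 0.234 over all named genes. Ly6e and Ptgr1 were the exceptions with a range above 1. Ly6e, a GPI-anchored surface protein, measured 10.43, 11.55 and 11.53, and Ptgr1, a prostaglandin reductase, 10.40, 11.51 and 11.51, so in both control 1 was the low array.

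In the gene-level table the highest row was ENSMUSG00000037742 at 12.90, 12.83 and 12.71. Of its highest 100 rows, 92, 92 and 93 were also among the highest 100 of controls 1, 2 and 3 taken singly. The 3 knockdown arrays, which the ranking did not use, shared 90, 89 and 91 of them. In the named ranking the shared numbers were 84, 95 and 89 on the control arrays and 84, 88 and 89 on the knockdown arrays.

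Among the blood lineage lists, primary granule genes lay near the top of the ranking, and NK and B cell genes in its low part. Of 22 lists, 4 had a median above percentile 90, namely housekeeping, primary granule, pan-haematopoietic and replication genes. Another 5 lay between 70 and 90, 1 lay between 50 and 70, and 12 lay under 50. The lists were written with earlier results of this series known, and their medians describe these arrays without a test.

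**Figure D1:**
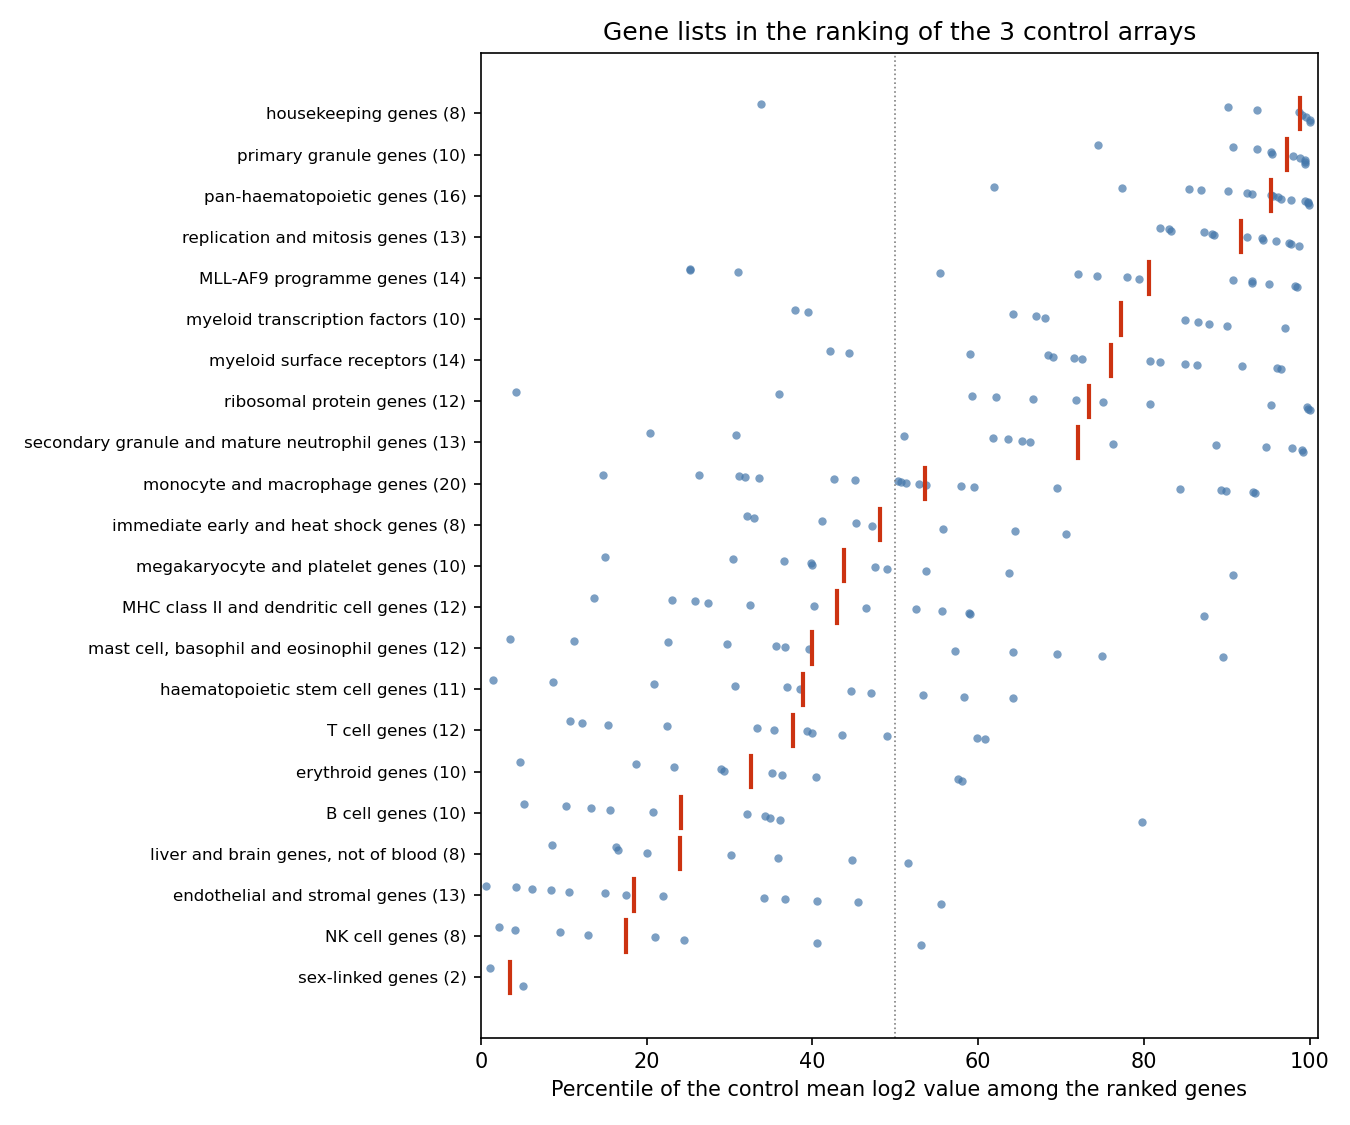
Percentile of each list member among 16871 ranked genes, by its mean over the 3 control arrays. Blue points are genes, red bars are the list median averaged over the 3 arrays, brackets give the number of genes measured and the dotted line is percentile 50. Primary granule genes sit at a median of 97.3 and NK cell genes at 17.5.

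Pan-haematopoietic genes were high on all 3 arrays. Their list median lay at percentile 95.3, 95.4 and 95.2 on controls 1, 2 and 3, and 15 of 16 members were in the highest 25% of genes. Ptprc, the CD45 phosphatase of all nucleated blood cells, measured 10.10, 9.79 and 9.84. Cd53, a leukocyte tetraspanin, was higher at 11.76, 11.58 and 11.61. Tyrobp, the DAP12 adaptor of myeloid receptors, measured 11.45, 11.45 and 11.56. The lowest members were Vav1, at percentile 77.3, and Was, at percentile 61.9. None of the 16 had a range above 1 log2 unit, where 8.86% of all named genes did. In a list of 16 genes such a count is near that share.

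Most genes of the primary granule list were among the brightest of all, and the arrays differed in which of them led. The list median lay at percentile 98.0, 96.9 and 97.1, or 97.0 without control 1, and 9 of 10 members were in the highest 10% of genes. Ctsg, the granule protease cathepsin G, measured 11.38, 11.02 and 11.21. Ms4a3, a membrane protein of granulocyte-monocyte progenitors, measured 11.68, 10.91 and 11.00. Srgn, the proteoglycan that packs granule proteases, and Serpinb1a, an inhibitor of those proteases, had means of 11.04 ± 0.132 and 10.72 ± 0.38 (SD, n = 3). Prtn3, proteinase 3, was even across arrays at 9.53, 9.71 and 9.56. Among myeloperoxidase and the listed proteases, Ctsg lay at percentile 99.5, Prtn3 at 95.3, Mpo at 90.7 and Prss57 at 74.5. Elane was not analysed here, because its older symbol in the annotation is shared by another gene.

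3 members of the list ranged over more than 1 log2 unit, which is 30.0% against 8.86% of all named genes. Mpo, myeloperoxidase, measured 7.90, 9.37 and 9.11, so control 1 was the low array and was lowest in 13 of its 15 probe sets. Prss57, a granule serine protease, was also lowest on control 1, at 6.60, 7.79 and 7.26. Lyz2, the lysozyme of neutrophils and macrophages, went the other way at 10.33, 8.66 and 8.84, and control 1 was highest in 6 of 6 probe sets.

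Secondary granule and mature neutrophil genes separated control 1 from the other arrays most plainly. The list median lay at percentile 83.4 on control 1 and at 66.1 and 66.5 on controls 2 and 3. Averaged over the arrays it was 72.0 ± 9.86 (SD, n = 3), and 66.3 without control 1. Of 13 members, 9 had a range above 1, which is 69.2% against 8.86% of all named genes, and control 1 was the highest array in 11 of 13, against 29.2% of all named genes. In 6 members control 1 lay more than 1 log2 unit above both others, where 0.842% of all named genes did.

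Ltf, lactoferrin, measured 7.74, 4.59 and 4.52, a range of 3.21 log2 units or 9.26-fold. Control 1 was highest in 20 of its 21 probe sets. Camp, the cathelicidin antimicrobial peptide of secondary granules, measured 11.11, 8.66 and 8.67, and control 1 was highest in 5 of 5 probe sets. Control 1 was thus the single high array for both genes, and controls 2 and 3 lay within 0.1 log2 units of each other. Mmp8, neutrophil collagenase, measured 9.80, 8.06 and 7.82. Cxcr2, the chemokine receptor of mature neutrophils, measured 7.81, 5.70 and 5.71. S100a8 and S100a9 encode the calprotectin subunits of the neutrophil cytosol and were bright on every array. S100a9 measured 11.94, 10.53 and 10.44, and S100a8 11.70, 10.52 and 10.39. Lcn2, a siderophore-binding granule protein, measured 8.0, 6.66 and 7.42, so controls 2 and 3 also differed there. Cd177, a neutrophil surface protein, measured 7.21, 6.10 and 6.24. Padi4, a histone-citrullinating enzyme of neutrophils, was level at 6.49, 6.58 and 6.68. Mmp9, gelatinase B, and Retnlg, a resistin-like secreted protein, were the lowest members, at percentiles 30.8 and 20.4.

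On the knockdown arrays, which had no part in the ranking, the list medians were 84.2, 65.6 and 60.8 on replicates 1, 2 and 3. Ltf measured 7.65, 4.88 and 4.67 there and Camp 10.62, 7.79 and 8.49. Knockdown replicate 1 was the highest of the 3 in 12 of 13 members, against 25.2% of all named genes. The library numbered 1 was therefore the high one in both groups. Whether a number marks an animal or a shared handling step is not stated, and these cannot be told apart. In bulk samples a larger share of maturing cells and more RNA per cell cannot be told apart either.

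**Figure D2:**
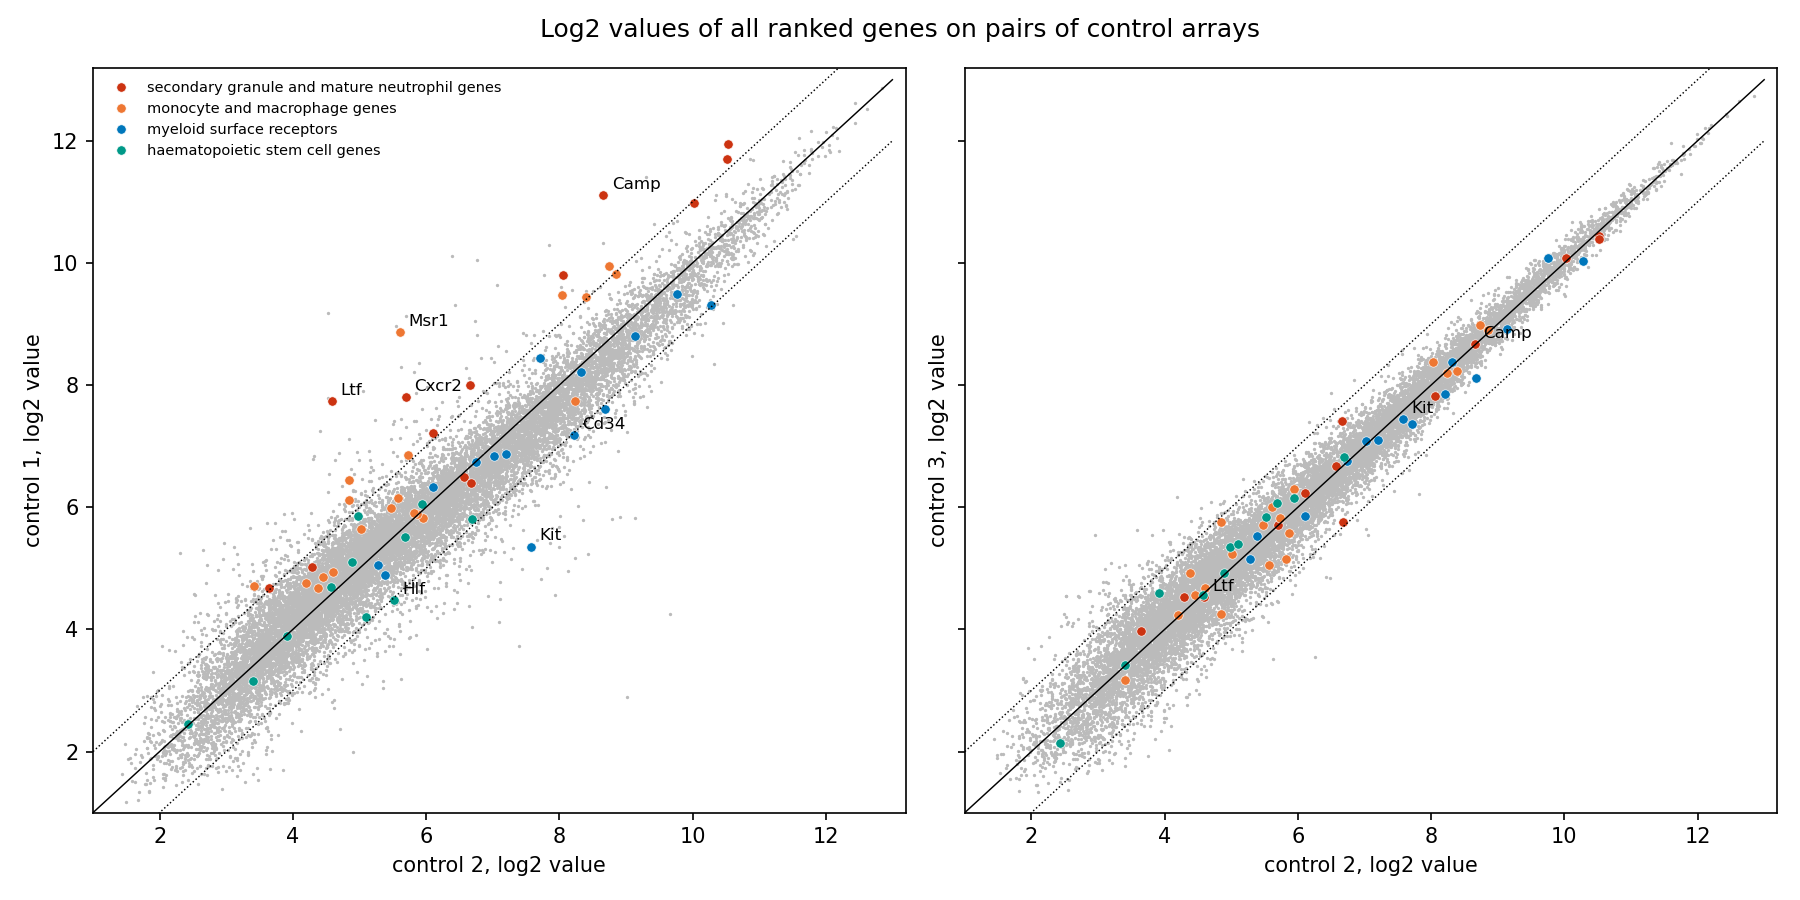
Log2 values of 16871 genes on control 1 (left) and control 3 (right) against control 2, with members of 4 lists coloured. The solid line is equality and the dotted lines are 1 log2 unit above and below it. Ltf, Camp and Msr1 lie above the upper line and Kit below the lower line on the left, and all coloured genes lie between the dotted lines on the right.

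The stretches of 250 bases before the start of 5 of these genes are shown because they are the regulatory ends of genes that were high (Ltf, Camp, Mmp8) or low (Kit, Mpo) on control 1. They come from RefSeq on build GRCm38.p6 and are written 5′ to 3′ on the strand of the gene. Capitals mark matches on either strand to letters bound by 3 myeloid factors, TTGCNNAA for C/EBP, GAGGAAG for PU.1 and TAACNG for MYB. The genes were chosen after their values were seen.
Ltf, chr9:111019042-111019291, plus strand: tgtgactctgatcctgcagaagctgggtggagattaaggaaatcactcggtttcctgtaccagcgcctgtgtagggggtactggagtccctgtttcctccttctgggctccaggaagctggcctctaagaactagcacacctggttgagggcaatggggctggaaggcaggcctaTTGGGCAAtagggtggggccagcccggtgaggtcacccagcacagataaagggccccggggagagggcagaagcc
Camp, chr9:109849457-109849706, minus strand: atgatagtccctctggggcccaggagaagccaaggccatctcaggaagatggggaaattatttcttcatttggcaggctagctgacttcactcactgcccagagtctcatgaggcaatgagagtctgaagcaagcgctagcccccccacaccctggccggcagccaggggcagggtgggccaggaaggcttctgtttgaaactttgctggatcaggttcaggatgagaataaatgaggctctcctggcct
Mmp8, chr9:7558179-7558428, plus strand: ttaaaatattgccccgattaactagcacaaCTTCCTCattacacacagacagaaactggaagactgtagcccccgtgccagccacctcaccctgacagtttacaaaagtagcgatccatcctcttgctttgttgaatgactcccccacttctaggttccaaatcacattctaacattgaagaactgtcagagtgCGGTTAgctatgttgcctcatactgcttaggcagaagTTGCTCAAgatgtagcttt
Kit, chr5:75574737-75574986, plus strand: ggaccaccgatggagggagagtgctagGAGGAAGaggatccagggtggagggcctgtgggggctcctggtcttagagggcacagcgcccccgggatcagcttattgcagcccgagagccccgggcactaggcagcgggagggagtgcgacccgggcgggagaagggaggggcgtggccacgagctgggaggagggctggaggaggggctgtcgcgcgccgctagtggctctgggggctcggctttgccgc
Mpo, chr11:87793534-87793783, plus strand: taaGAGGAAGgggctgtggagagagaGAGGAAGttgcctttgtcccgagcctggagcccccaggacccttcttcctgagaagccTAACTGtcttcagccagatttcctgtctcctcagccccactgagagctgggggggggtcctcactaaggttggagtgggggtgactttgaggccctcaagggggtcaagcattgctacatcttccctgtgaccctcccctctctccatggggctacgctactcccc

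The C/EBP letters occurred 1 time in the Ltf and 1 time in the Mmp8 stretch, and were not found in the stretches of Camp, Kit and Mpo. They occur in 9.55% of the stretches of 27025 genes. The PU.1 letters occurred 2 times before Mpo, 1 time before Kit and 1 time before Mmp8, against 10.4% of all stretches with a match. The MYB letters occurred 1 time before Mpo and 1 time before Mmp8, against 19.8%. A match describes letters only and is not evidence of binding, and no match says only that these letters are not in this window.

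Monocyte and macrophage genes showed the same order of arrays at a lower place in the ranking. The list median lay at percentile 59.6, 50.6 and 50.6 on controls 1, 2 and 3, or 50.6 without control 1. Control 1 was the highest array in 17 of 20 members, against 29.2% of all named genes. A range above 1 was measured in 9 of 20, or 45.0%, against 8.86%. Msr1, a macrophage scavenger receptor, measured 8.87, 5.60 and 6.01, and control 1 was highest in 10 of 10 probe sets. Ccr2, the receptor that calls monocytes out of marrow, measured 9.48, 8.03 and 8.38. Cd68, a lysosomal membrane protein of macrophages, measured 9.94, 8.74 and 8.99. Lgals3, galectin-3, measured 9.44, 8.39 and 8.23, and Mpeg1, the pore-forming perforin-2, 6.45, 4.84 and 4.24. Adgre1, which encodes the F4/80 antigen, ran the other way at 7.74, 8.23 and 8.19. The complement genes C1qa, C1qb and C1qc, made by tissue macrophages, lay at percentiles 31.1, 51.3 and 45.1, and Mrc1, the mannose receptor, was the lowest member at 14.7.

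Myeloid surface receptors, those of progenitors and those of other myeloid cells, were mostly lowest on control 1. Control 1 was the lowest array in 12 of 14 myeloid surface receptors, against 45.7% of all named genes. The list median moved little, at 74.0, 78.4 and 75.6, or 77 without control 1. The 45.7% covers genes of every level and is not matched for brightness. Over all named genes the upper quartile was 7.1 on control 1, and 7.35 and 7.36 on controls 2 and 3. The median receptor difference, control 1 minus the mean of the other arrays, was -0.25. Whether the count of 12 exceeds that of equally bright genes was not tested. Kit, the stem cell factor receptor, measured 5.36, 7.57 and 7.44, a range of 2.22 log2 units or 4.65-fold, and control 1 was lowest in 22 of 22 probe sets. Cd34, a sialomucin of progenitors, measured 7.19, 8.21 and 7.86, and control 1 was lowest in 13 of 13 probe sets. Its range of 1.03 was 0.78 after quantile normalization of the arrays. Cd93, a C-type lectin of early progenitors and myeloid cells, measured 9.31, 10.28 and 10.03. Csf2ra, the GM-CSF receptor alpha chain, measured 7.61, 8.68 and 8.11. Itgam, the CD11b integrin that appears as myeloid cells mature, was the opposite case at 8.45, 7.71 and 7.37, with control 1 highest in 35 of 40 probe sets. With the mean over its probe sets the Itgam range was 0.73 in place of 1.08.

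The remaining receptors described here had ranges under 1 log2 unit. Cd33, a sialic acid-binding lectin of myeloid cells, measured 8.81, 9.14 and 8.92. Fcgr3, a low-affinity IgG receptor, measured 9.50, 9.76 and 10.09. Csf1r and Csf3r, the receptors for M-CSF and G-CSF, lay at percentiles 59.0 and 42.1. Flt3, a receptor tyrosine kinase of multipotent progenitors, lay at 44.4 and was lowest on control 1, at 4.90 against 5.39 and 5.53.

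Genes linked to the MLL-AF9 programme were mostly bright, and by the median over probe sets the HOXA genes were not the brightest of them. The list median lay at percentile 81.1, 81.7 and 79.0, or 80.3 without control 1, with 8 of 14 members in the highest 25%. Myc, a growth-promoting transcription factor, measured 10.41, 10.84 and 10.53. Cdk6, a G1 kinase, measured 10.50, 10.39 and 10.44. Meis1, the homeobox partner of HOXA9, measured 9.13, 9.69 and 9.84, with control 1 the low array. The Meis1 range of 0.72 was 0.46 after quantile normalization. Hoxa9, Hoxa7 and Hoxa5 lay between percentiles 72.1 and 79.4. Hoxa9 measured 6.88, 7.32 and 6.86. Its mean was 7.02 as the median over probe sets and 7.52 as their mean, a gap larger than the SD between arrays of 0.26. Single probe sets of Hoxa9 had control means from 5.13 to 10.5, and those of Meis1 from 3.69 to 10.36. For Hoxa10 they ran from 2.23 to 8.63, and Hoxa6 had 3 probe sets, so the order of these genes depends on the probe sets. Hoxa10 and Hoxa6, at percentiles 25.2 and 31.0, were among the lowest members, together with Zfp521, a zinc finger regulator of early progenitors, at 25.2.

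Pbx3, another homeobox partner of HOXA9, was the exception in its spread. It measured 5.53, 8.08 and 8.02, and control 1 was lowest in 13 of 13 probe sets. On the knockdown arrays it measured 5.55, 7.91 and 8.65, so the library numbered 1 was again the low one. Hoxa11 ran the other way at 6.59, 5.48 and 5.56, but in 4 of its 7 probe sets only.

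Genes of normal haematopoietic stem cells were low. Their list median lay at percentile 31.6, 39.7 and 45.4, or 42.6 without control 1, and none of the 11 members reached the highest 25%. Mllt3, the AF9 partner of the fusion, was the highest member at 5.80, 6.69 and 6.82. Mecom, the EVI1 stem cell factor, measured 4.20, 5.10 and 5.40, and Hlf, a stem cell bZIP factor, 4.47, 5.52 and 5.84. Both were lowest on control 1, in 19 of 22 and 19 of 25 probe sets. Slamf1, which encodes CD150, was the lowest member at percentile 1.38 and measured 2.45, 2.43 and 2.14.

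Myeloid transcription factors had a list median at percentile 77.9, 77 and 76.8, or 76.9 without control 1. None of the 10 ranged over more than 1 log2 unit, where 8.86% of all named genes did, so a count of 0 is near that share. Control 1 was highest in 4 and lowest in 4, near the 29.2% and 45.7% of all named genes. Myb, a factor of cycling progenitors, measured 9.79, 10.16 and 10.11, and control 1 was lowest in 18 of 18 probe sets. Cebpa, which starts granulocyte commitment, measured 8.39, 8.37 and 8.16. Spi1, which encodes PU.1, measured 7.90, 8.34 and 8.17. Cebpe, a factor of late granulocyte maturation, measured 8.25, 8.64 and 8.44. Irf8 and Gfi1, factors of monocyte and granulocyte fate, lay at percentiles 64.2 and 67.0, and Cebpb and Klf4 at 39.4 and 37.9.

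Replication and mitosis genes were bright on every array, with a list median at percentile 92.6, 91.3 and 91.2 and 13 of 13 members in the highest 25%. Top2a, the topoisomerase of dividing cells, measured 10.74, 10.58 and 10.67. Mki67, the Ki-67 antigen, measured 10.42, 10.10 and 10.07, and Cdk1, the mitotic kinase, 10.53, 10.10 and 10.21. Mcm2, a subunit of the replicative helicase, measured 7.59, 8.85 and 8.71. It was the single member with a range above 1, which is 7.69% of the list against 8.86% of all named genes. It was lowest on control 1 in 16 of 17 probe sets.

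**Figure D3:**
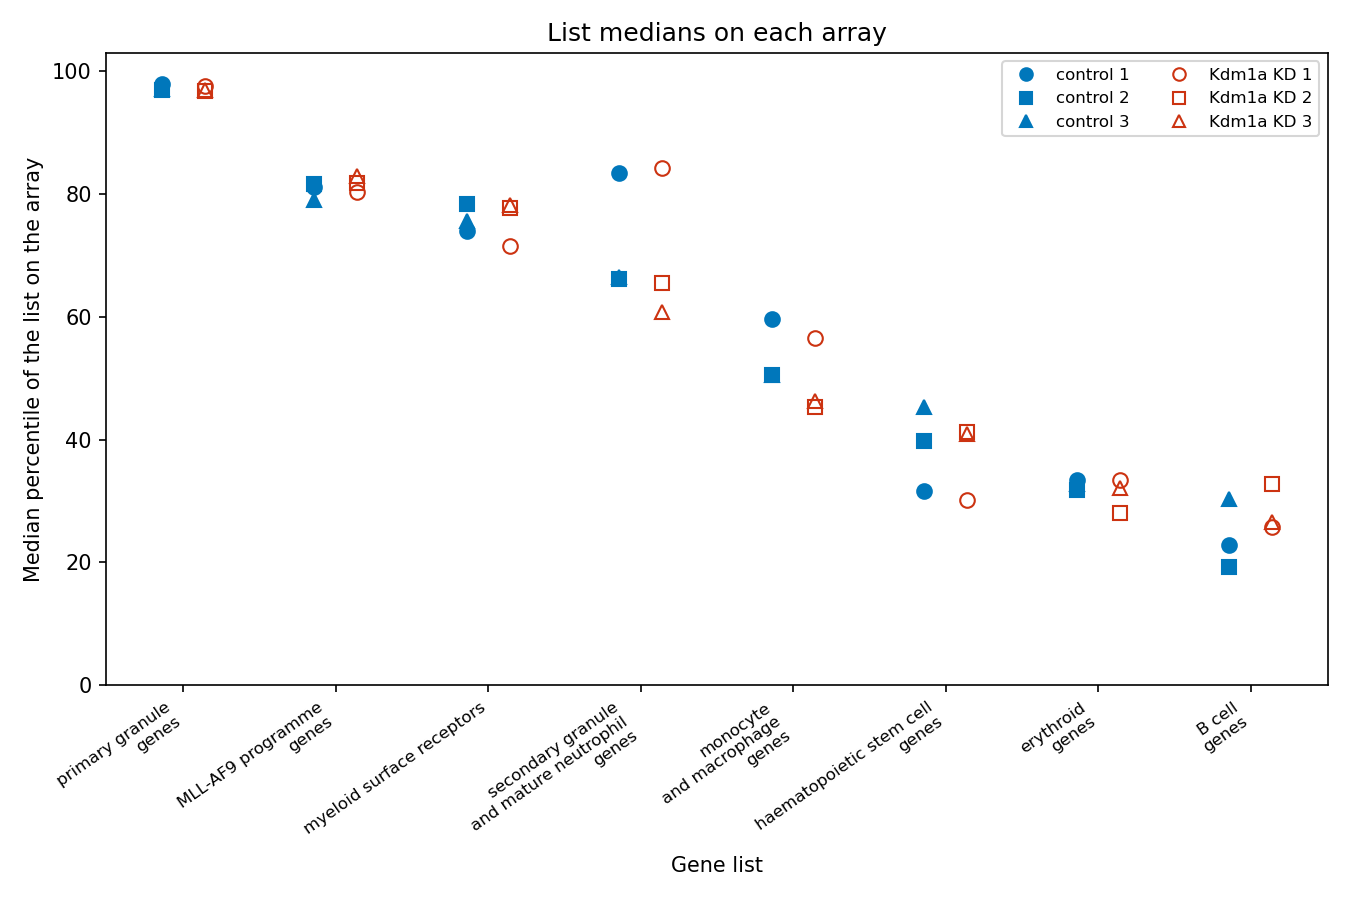
Median percentile of 8 gene lists on each array (filled blue for control, open red for Kdm1a KD, shape for the replicate number). Secondary granule genes lie at 83.4 on control 1 and 84.2 on Kdm1a KD 1, and between 60.8 and 66.5 on the other 4 arrays, whereas primary granule genes lie between 96.8 and 98.0 on all 6.

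Markers of most other lineages were low. The erythroid list had medians of 33.5, 31.8 and 32.7, and 8 of 10 members lay in the lower 50% of genes. Gata1, the erythroid and megakaryocyte master factor, measured 4.66, 4.38 and 4.56, at percentile 29.0. Klf1, the erythroid Krüppel-like factor, lay at 18.7, and the globin genes were not ranked. Among 10 megakaryocyte genes, Nfe2, a factor also used by myeloid cells, was the single bright one at 9.08, 8.68 and 8.66. Itga2b, the platelet integrin CD41, lay at percentile 40.0 and Pf4, platelet factor 4, at 30.4.

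Mast cell, basophil and eosinophil genes were mixed. The list median lay at 40.5, 42.6 and 36.9. Prg2, the eosinophil granule major basic protein, was bright at 8.15, 9.01 and 8.82. Cpa3, mast cell carboxypeptidase, was higher on control 1 at 8.45, 6.82 and 6.48. Hdc, the histamine-forming enzyme, was lower there, at 5.24, 6.83 and 7.24. Il5ra, the IL-5 receptor of eosinophils, was the lowest member at percentile 3.5.

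Lymphoid lists were low, with medians of 22.9, 19.2 and 30.3 for B cell genes, 44.0, 35.1 and 34.1 for T cell genes (34.6 without control 1) and 14.6, 20.5 and 17.4 for NK cell genes. Cd79b, the immunoglobulin beta chain, was the exception among B cell genes at 7.14, 7.86 and 8.0, at percentile 79.8. Pax5 and Ebf1, the factors that define B cells, lay at 36.1 and 13.3. Of the T cell receptor complex, Cd3e lay at 49.0, Cd3d at 12.2 and Cd3g at 10.7. Cd28, a T cell costimulatory receptor, was higher on control 1 at 7.42, 5.52 and 5.51. MHC class II genes lay near the middle, and H2-Eb1 measured 6.70, 5.34 and 5.61, while H2-DMa, which loads class II peptides, was bright at 7.79, 8.57 and 8.78. Endothelial and stromal genes had medians of 18.1, 16.8 and 20.2, with 12 of 13 members in the lower 50%, and Lum, a matrix proteoglycan, at percentile 0.551. Genes of liver and brain, included as tissues that should be absent, had medians of 25.3, 26.1 and 20.7, so a low value on these arrays is not 0.

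The spread between the control arrays was small for most rows and was widest at low levels. Over the 23770 gene-level rows the median SD was 0.189, with 90% of rows between 0.0448 and 0.603. It was 0.216 in the lowest 25% of rows and 0.182 in the highest 25%. A range above 1 log2 unit was measured in 1735 rows, or 7.3%, with 11.5% of the lowest and 4.39% of the highest 25% of rows. Without control 1 the median SD was 0.118 and 638 rows had such a range. Without control 2 or control 3 the median SDs were 0.157 and 0.18, and the counts 853 and 1112. A range over 2 arrays cannot exceed that over 3, so each of these counts is at most 1735 by construction. Values from 2 arrays can therefore be set against each other only.

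Among genes with a mean above the median level, the widest ranges belonged to control 1 in every case. That mean covers all 3 arrays, so the array that stands apart takes part in the choice. Of the 15 genes with the largest range above the median level, control 1 was highest in 6 and lowest in 9. Controls 2 and 3 differed by at most 0.89 in any of them. On the knockdown arrays, replicate 1 was the highest in the same 6 and the lowest in the same 9. The genes high on control 1 included several macrophage products. Mmp12, macrophage elastase, measured 9.18, 4.53 and 5.22. Spp1, osteopontin, measured 10.05, 6.76 and 6.78. Lpl, lipoprotein lipase, measured 9.13, 5.69 and 5.61. Csta3, a stefin that inhibits cysteine proteases, measured 10.11, 6.39 and 6.85, and Mgam, maltase-glucoamylase, 8.97, 5.55 and 5.35. Msr1 was the other one. Mmp12 and Mgam lay under the median level of 5.56 on controls 2 and 3, so they entered the choice through control 1.

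Genes low on control 1 were more mixed. Tceal8 measured 2.89, 9.01 and 9.59, from 3 probe sets. Akr1e1, an aldo-keto reductase, measured 4.25, 9.65 and 9.58, and control 1 was lowest in 11 of 11 probe sets. Among genes above the median level these were the widest ranges, at 6.69 and 5.40 log2 units. Vcam1, an adhesion receptor, measured 5.83, 9.13 and 8.89. Adgrl4, an adhesion G protein-coupled receptor, measured 5.24, 8.43 and 8.65. Rtp4, an interferon-inducible receptor chaperone, measured 4.56, 7.94 and 8.83. Serpinf1, which encodes the secreted factor PEDF, measured 5.84, 8.91 and 9.06. Psma8 (a proteasome subunit of testis), Stk39 (a kinase of ion transport) and Ms4a6b completed the group, with ranges of 3.67, 3.33 and 3.26.

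**Figure D4:**
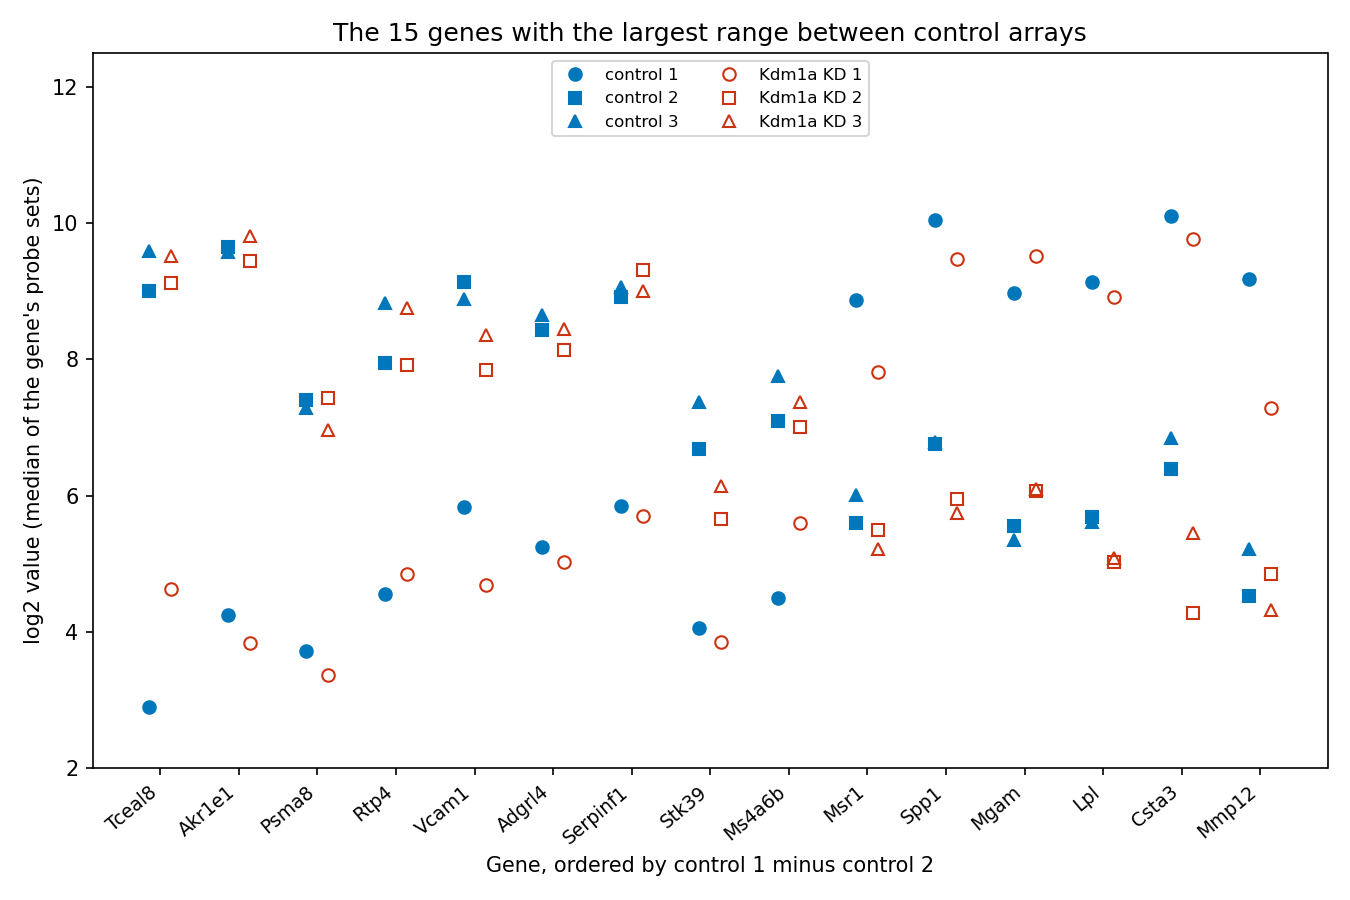
Log2 values on all 6 arrays of the 15 genes with the largest range between control arrays among genes above the median level, filled blue for control and open red for Kdm1a KD, with the shape giving the replicate number. The circles of control 1 lie apart from the squares and triangles in all 15 genes, and the open circles of Kdm1a KD 1 lie on the same side.

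The pattern was not limited to those 15. Among the 142 genes where control 1 lay above both others by over 1 log2 unit, knockdown replicate 1 was the highest knockdown array in 129, or 90.8%, against 25.2% of all named genes. Among the 317 where control 1 lay below, knockdown replicate 1 was the lowest in 279, or 88.0%, against 44.4%. For the 55 genes in which control 2 lay above both others, the highest knockdown array was replicate 1 in 16 (29.1%), replicate 2 in 17 (30.9%) and replicate 3 in 22 (40.0%), against 25.2%, 29.6% and 45.2% of all named genes. For the 63 in which control 2 lay below, knockdown replicate 2 was the lowest in 18, or 28.6%, against 31.5%. For control 3, knockdown replicate 3 was the highest in 8 of 29, or 27.6%, against 45.2%, and the lowest in 9 of 24, or 37.5%, against 24.1%. In those 24 genes knockdown replicate 2 was the lowest in 13, or 54.2%, against 31.5%. A shared source of the libraries numbered 1 was not tested.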

How the data were processed

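Each control and knockdown sample was measured on 1 array, after whole-transcriptome amplification of total RNA and biotin labelling, per the labels' protocols. The deposited values are log2 values from RMA, per the submitters' processing notes, which name no version. The log2 scale was read from their range. RMA equalises the arrays and can compress differences. The sources used here do not give the build or row filters, and no detection calls accompany the values.

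The planned gene-level ranking could not be named, since 0 of its 23770 rows were matched to a symbol, so named values came from the probe-set table. Of its 267824 probe sets, 242247 had 1 symbol, 2077 had several and 23500 were not listed. Of 18957 annotation symbols, 3003 were updated through a unique RefSeq synonym. Of 299 listed genes, 246 were ranked. Control samples were grouped by title. Only descriptive values were computed, with Python 3.11.15, pandas 2.3.3 and numpy 2.4.6, and the steps were tested on simulated data. The named genes are, by rule, the 25 highest, the extremes and wide-ranging members of each list, the 15 widest ranges above the median level and a set of defining genes; a selection of these is given. The members and lists were chosen with earlier results of these data known.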

Additional observations from a re-analysis of the deposited data

How the results depend on the processing

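The lists with a median in the top 25% and in the lower 50% of genes numbered 7 and 12, and 6 to 8 and 11 to 13 under the alternatives. The alternatives on probe sets and single knockdown arrays, and the count of genes in which 1 array stood apart, were chosen after the data were seen. Ribosomal protein genes moved most, from 73.4 to 91.6, when genes with 1 or 2 probe sets were kept. The median SD of the gene-level rows was 0.118 to 0.18 with 1 control array left out. The rows with a range above 1 log2 unit numbered 638 to 1112 with 1 array left out, 1050 and 657 without the lowest 25% and 50% of rows, and 5872 at a 1.5-fold threshold, against 1735. Fewer rows, fewer arrays and a lower threshold move this count by construction. Which array was left out also mattered: the count was 638 without control 1, 853 without control 2 and 1112 without control 3, and the cause was not tested. After quantile normalization control 1 stood apart upward in 192 and downward in 223 named genes, against 142 and 317. With the mean over probe sets the counts were 111 and 172 for control 1, 4 and 7 for control 2 (against 55 and 63), and 1 and 0 for control 3 (against 29 and 24). Of the highest 100 named genes, 75 were found again with the mean over probe sets and 72 with genes of 1 or 2 probe sets kept. No paired analysis was possible because the results are descriptions of the control arrays and come from no test, so there was no fit to which a replicate block could be added. The symbol-only ranking, identical rows in the named table and a match of gene-level rows to probe sets were not run. Only 3 arrays limit the precision, and no detection limit is known for the lowest values.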

Other observations

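Housekeeping genes were not uniformly bright. Eef1a1, B2m, Eef2, Actb and Hprt lay above percentile 98, but Tpt1, a translationally controlled protein that most cells make in quantity, lay at percentile 33.8, with 4.89, 4.35 and 5.03 from 3 probe sets. The control means of these Tpt1 probe sets ran from 3.06 to 10.38, so its place depends on the probe set, and what they read was not tested. The Y-linked genes Kdm5d and Eif2s3y were low on all control arrays, at 2.99, 2.73 and 3.12 and at 1.87, 2.51 and 2.38, and lay at percentiles 5.03 and 1.05.

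Immediate early genes, which handling of cells can switch on, had list medians at percentiles 53.0, 47.9 and 43.3. Fos measured 5.41, 5.54 and 5.26, Jun 5.68, 5.31 and 4.93, and Atf3 5.72, 4.38 and 5.24, so Atf3 was the 1 of 8 with a range above 1 log2 unit, where 8.86% of all named genes had one, so this count is near that share.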
